A study of Drosophila melanogaster with 3 samples.

Results

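The X chromosome of Drosophila melanogaster carried 1231 of the 7477 peaks, or 16.5%, in the final chromatin immunoprecipitation sequencing (ChIP-seq) peak list for the zinc finger protein Trem. They were chosen by position alone, as every peak of that list on X, and were set against the 4790 peaks on the autosomal arms 2L (1381 peaks), 3L (1611) and 3R (1798). That list is the authors' set after filtering by the irreproducible discovery rate (IDR), a measure of how alike peaks rank in different libraries. The chromatin came from whole embryos aged 0 to 14 hours, with males and females pooled, of 1 transgenic line that stably expressed Trem with enhanced green fluorescent protein at its C-terminal end. Chromatin was precipitated with an antibody against GFP by the labels' description, while another label gives the antibody as trem. There were 3 biological replicates of this single group, so no genotype, stage or treatment could be compared, and the share of males is not given in the sources used here. X and the arms were read in the same libraries, and the comparison of chromosomes was repeated within each replicate's own 7477 strongest peaks.

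Trem is encoded by trade embargo, an autosomal gene known for its role in starting meiotic recombination in the female germ line, where mutants fail to form the DNA double-strand breaks from which crossovers arise. The X chromosome differs from the autosomes in copy number between the sexes, since females have a pair and males a single X. In fly males the dosage compensation complex, made of MSL proteins and the roX RNAs, coats the X and raises its transcription, so that X-linked output in both sexes is alike. A ChIP peak marks a place where DNA was precipitated, and its signal value, as the authors deposited it, is comparable only within 1 list.

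The windows below show the 6 among the 8 strongest X peaks that held the 8-letter sequence CTGCCAAC on one strand or its reverse complement GTTGGCAG on the other, which are in capitals. Each runs from 80 bp before to 80 bp after the summit and is given on the forward strand of the RefSeq genome, build dm6. In the order shown, they lie at chrX:10460588-10460748, chrX:19848476-19848636, chrX:18371235-18371395, chrX:10786214-10786374, chrX:1908106-1908266 and chrX:1900584-1900744. The sequence is that which most set the strongest peaks of 2L, 3L and 3R apart from windows 1000 bp away, and its choice did not use X peaks, although the decision to search only the strongest decile of the arms was made after the sequences of strong X peaks had been seen.
Neb-cGP: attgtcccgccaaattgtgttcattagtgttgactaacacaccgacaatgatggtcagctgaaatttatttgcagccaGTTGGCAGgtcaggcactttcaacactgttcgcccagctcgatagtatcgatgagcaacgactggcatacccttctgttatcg
pico: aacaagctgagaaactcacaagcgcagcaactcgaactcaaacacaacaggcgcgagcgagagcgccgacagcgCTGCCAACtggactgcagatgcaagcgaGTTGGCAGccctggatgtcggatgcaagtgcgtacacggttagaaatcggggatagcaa
CrebB: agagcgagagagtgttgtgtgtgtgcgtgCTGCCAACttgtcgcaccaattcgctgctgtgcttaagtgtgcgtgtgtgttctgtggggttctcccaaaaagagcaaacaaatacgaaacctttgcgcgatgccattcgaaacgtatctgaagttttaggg
sesB: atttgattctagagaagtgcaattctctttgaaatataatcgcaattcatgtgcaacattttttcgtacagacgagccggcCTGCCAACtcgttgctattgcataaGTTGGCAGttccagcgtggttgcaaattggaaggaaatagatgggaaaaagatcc
mip130: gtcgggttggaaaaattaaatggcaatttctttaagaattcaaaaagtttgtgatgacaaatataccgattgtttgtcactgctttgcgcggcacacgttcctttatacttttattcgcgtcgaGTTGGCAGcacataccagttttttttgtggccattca
arm: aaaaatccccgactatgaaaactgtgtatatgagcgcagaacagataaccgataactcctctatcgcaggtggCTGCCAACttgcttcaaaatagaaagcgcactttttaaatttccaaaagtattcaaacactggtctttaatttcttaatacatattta
The windows of pico and sesB each held 2 copies in opposite orientation. The window of the third-ranked X peak, upstream of RhoGAP16F at chrX:18092974-18093134, is shown because it held no copy in 161 bp despite a signal of 5543.6.
RhoGAP16F: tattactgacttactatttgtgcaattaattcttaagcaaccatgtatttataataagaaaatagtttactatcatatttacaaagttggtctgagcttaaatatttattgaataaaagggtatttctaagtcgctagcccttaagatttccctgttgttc
The next windows are the 3 strongest X promoter peaks with the DNA replication-related element TATCGATA, a promoter element of genes for growth and replication, shown because X promoters held it more often than those of the arms. They lie at chrX:13757024-13757184, chrX:8102041-8102201 and chrX:8517224-8517384, and capitals mark the element. The CG2258 window also holds CTGCCAAC, left here in lower case.
Rtc1: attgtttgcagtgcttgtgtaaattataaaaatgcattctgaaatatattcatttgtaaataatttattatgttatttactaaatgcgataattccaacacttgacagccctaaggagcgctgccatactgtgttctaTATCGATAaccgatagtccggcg
CG2258: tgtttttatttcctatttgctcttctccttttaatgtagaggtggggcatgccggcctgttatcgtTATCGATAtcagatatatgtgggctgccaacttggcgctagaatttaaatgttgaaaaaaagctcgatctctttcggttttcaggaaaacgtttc
Nrg: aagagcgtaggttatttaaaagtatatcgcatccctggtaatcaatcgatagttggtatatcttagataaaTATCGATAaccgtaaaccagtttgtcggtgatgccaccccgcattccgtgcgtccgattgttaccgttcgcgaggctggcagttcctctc

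The strongest X peak lay 68 bp upstream of the transcription start site (TSS) of Neb-cGP (FBgn0083167, chrX:10460736-10461878, forward strand), with its summit at position 10460668 and a signal of 9574. It was the 7th strongest of all 7477 peaks and ranked 5, 8 and 9 in replicates 1, 2 and 3. The second, 78 bp upstream of a TSS of pico (FBgn0261811, chrX:19830215-19852059, reverse strand), which encodes an adaptor protein of the actin cytoskeleton, had a signal of 7640 and ranked 50, 21 and 12. These were the only X peaks among the 50 strongest of the IDR list.

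The other X peaks of highest signal lay at genes of varied function. RhoGAP16F (FBgn0030893, chrX:18093145-18097413), a GTPase-activating protein gene, had its summit 91 bp upstream. CrebB (FBgn0265784, chrX:18366357-18377864), which encodes a transcription factor of the cyclic AMP response, had a peak of signal 4984.3 whose summit lay 54 bp downstream of a TSS, and it ranked 109, 73 and 84 in the replicates. A peak of signal 4882.5 lay between fh (FBgn0030092), the frataxin gene of mitochondrial iron-sulphur metabolism, and Bap111 (FBgn0030093), which encodes a subunit of the Brahma chromatin remodelling complex. It lay 80 bp upstream of fh and 158 bp upstream of Bap111, and ranked 95, 93 and 108.

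The peak of signal 3495.6 at mip130 (FBgn0023509, chrX:1908239-1920318), which encodes a subunit of the Myb-MuvB complex, was the widest on X at 1272 bp. Its summit lay 53 bp upstream of mip130 and inside the gene Edem1. The peak at arm (FBgn0000117, chrX:1891401-1900646), which encodes the fly beta-catenin, had a signal of 2879.3, lay 18 bp upstream and ranked 160, 147 and 147. Both stood in the same rank range in the replicates as in the IDR list, where they ranked 133 and 150. The remaining promoter peaks among the 20 strongest on X lay at CG3097, wcy, Tip60 with tyf, Amun, ph-p, Ugalt, Rtc1 with CG32625, and Raf. Tip60 encodes a histone acetyltransferase, Ugalt a sugar nucleotide transporter and Raf the kinase above MEK. The Polycomb gene ph-p (FBgn0004861, chrX:2126210-2138371) had 2 of these peaks, with signals of 2323.6 and 1793, which ranked 141 and 181 in replicate 1 but 252 and 256 in replicate 2 and 210 and 236 in replicate 3.

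The strongest X peak outside promoters lay in an intron of both sesB (FBgn0003360, chrX:10780893-10786958, reverse strand) and Ant2, the adjoining pair of genes for mitochondrial adenine nucleotide translocases. Its summit was 613 bp downstream of a sesB TSS, its signal was 4383.3 and it ranked 134, 101 and 103 in the replicates. The next lay in an intron of hiw (FBgn0030600, chrX:15010137-15063429), a ubiquitin ligase gene that limits synapse growth, 631 bp downstream of a TSS with a signal of 2179.3. A peak over the long non-coding RNA gene Vinr, 4817 bp downstream of the nearest protein-coding TSS, that of CG4004, had a signal of 1591.7, and replicate 1 had no summit within 100 bp of it. A second summit in the same peak region, 5019 bp downstream with a signal of 1382.2, was found in all 3 replicates. A peak in an intron of CG32772 had a signal of 1550.7 and ranked 210, 274 and 239.

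Among the 7477 peaks of a list, those on X had lower signal values than those of the arms. The signal of X peaks in the IDR list ran from 144.4 to 9574 with a median of 249.7, against a median of 274 on the arms. The median X peak stood at the 45.5th percentile of the list by signal, where 50 is the middle of all peaks, against 51.0 on 2L, 51.1 on 3L and 53.7 on 3R. In replicates 1, 2 and 3 the X median stood at 43.2, 44.0 and 43.9, and that of the pooled arms at 51.7, 51.6 and 52.3. X was lower in 3 of 3 replicates, with a difference of -8.13 ± 0.480 percentile points (mean ± SD, n = 3 replicates), and the X values did not overlap those of the arms. The exact two-sided sign-flip permutation test over replicates gave p = 0.25, the smallest that 3 replicates allow, so the design cannot reach 0.05. Adjusted over the 8 comparisons of this kind by the Benjamini-Hochberg method it was 0.5, and every other difference with the same sign in 3 of 3 replicates has the same p of 0.25. With all 30000 peaks of each replicate list the mean difference was 0.298 ± 2.74 points, smaller than its spread. There X stood higher in replicate 1, at 52.8 against 49.3, and lower in replicates 2 and 3, at 48.8 against 50.1 and 48.9 against 50.2. Since males carry a single X and the share of males is not given, fewer copies of X and less precipitated DNA per copy cannot be told apart in any signal on X.

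The gap was widest at the top of the lists. X supplied 1 of the 20 strongest IDR peaks, 5 of the 100 strongest and 16 of the 200 strongest. The counts were 8, 19 and 38 on 2L, 1, 21 and 45 on 3L, and 3, 28 and 54 on 3R. Among the 20 strongest, X was thus level with 3L. In the strongest decile there were 79 X peaks, or 6.42% of the X peaks, against 10.8% of those on 2L, 9.93% on 3L and 11.8% on 3R. The share was 7.15%, 6.30% and 5.83% in replicates 1, 2 and 3 on X and 10.9%, 10.8% and 10.9% on the arms. The X values stayed below those of the arms in 3 of 3 replicates (difference -4.43 ± 0.701 percentage points, or -2.46 over all 30000 peaks). Of these strong X peaks, 78 of the 79 had a summit within 100 bp among the 7477 strongest peaks of every replicate. On the arms 511 of 521 did. The IDR list was derived from these same replicates, so such recovery was built into it and is no trait of X.

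**Figure D1:**
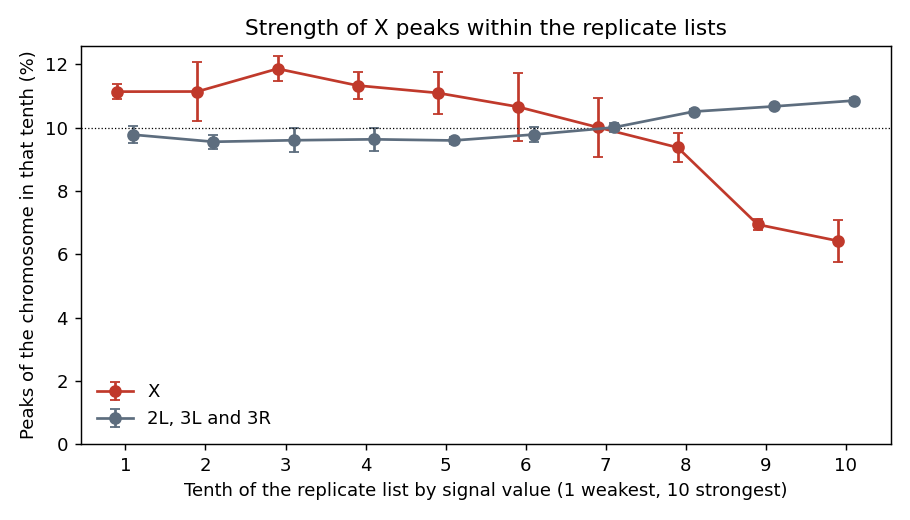
Share of X peaks (red) and of peaks on 2L, 3L and 3R (grey) in each decile of the replicate lists by signal value, as mean and SD of 3 replicates. X lies above the arms in the weaker deciles and below them in the strongest, at 6.43% against 10.9%, and the dotted line marks an even share.

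The gap in signal was larger at promoters than elsewhere. Promoter peaks, with a summit within 500 bp of a protein-coding TSS, numbered 754 on X. Their median percentile was 46.8, 48.1 and 48.9 in replicates 1, 2 and 3, against 59.2, 59.7 and 59.9 for promoter peaks of the arms, so every X value lay below every value of the arms (difference -11.6 ± 0.763, or -3.92 over all 30000 peaks). X peaks outside promoters, 477 in the IDR list, had medians of 38.9, 36.6 and 37.3 in the replicates, against 41.6, 37.9 and 37.7. X was lower in 3 of 3 replicates there too, by a smaller difference of -1.48 ± 1.19 points, although the ranges overlapped. Within each list, the 95th percentile of signal at X promoter peaks was 0.495 ± 0.0223 times that of the arms, with values of 0.488, 0.520 and 0.477. Outside promoters the same ratio was 1.01 ± 0.00415. The median signal ratio was 0.845 ± 0.0113 at promoters and 0.981 ± 0.0162 elsewhere. Outside promoters it was lower between these points, at 0.940 ± 0.0128 at the 75th percentile and 0.946 ± 0.0141 at the 90th, below 1 in 3 of 3 replicates, where the promoter ratios were 0.793 ± 0.0280 and 0.720 ± 0.0311. The ratios at promoters were below those elsewhere in 3 of 3 replicates at the median and at the 95th percentile.

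**Figure D2:**
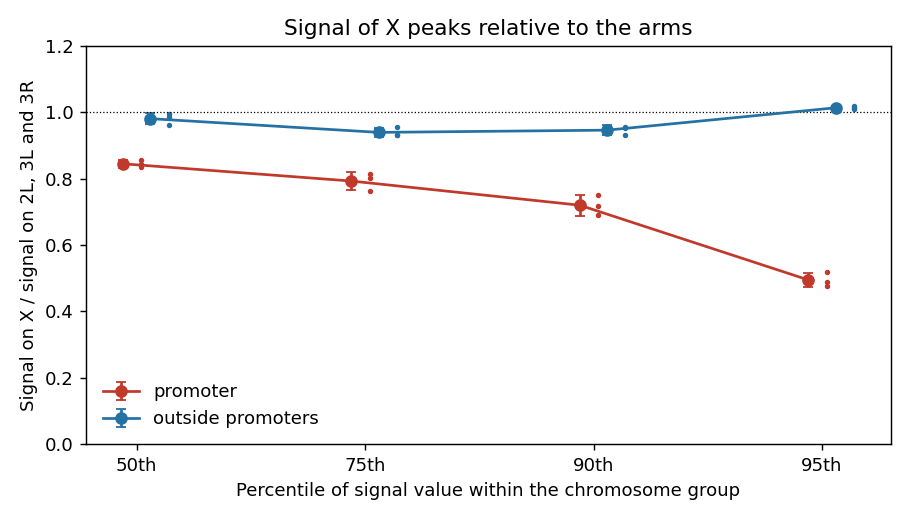
Ratio of the signal value on X to that on 2L, 3L and 3R at 4 percentiles of each group, for promoter peaks (red) and peaks outside promoters (blue), with the mean and SD of 3 replicates and each replicate as a small point. The promoter ratio falls from 0.845 at the median to 0.495 at the 95th percentile, while the ratio elsewhere lies between 0.940 and 1.01.

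The density of peaks on X depended on what it was counted against. The IDR list held 52.3 peaks per Mb on X, 58.7 on 2L, 57.3 on 3L and 56.0 on 3R. Replicates 1, 2 and 3 held 53.5, 50.6 and 49.5 peaks per Mb on X and 57.4, 57.3 and 57.1 on the arms, a difference of -6.06 ± 1.94 with X lower in 3 of 3. Over all 30000 peaks of each list the difference was -20.3 peaks per Mb. X also has fewer genes, with 93.3 protein-coding genes per Mb against 105 on the arms. Per 100 protein-coding genes the replicates held 57.3, 54.2 and 53.1 peaks on X and 54.5, 54.4 and 54.3 on the arms, and the sign differed between replicates (difference 0.527 ± 2.09, exact sign-flip permutation p = 1). Of the single arms, 3L held more per 100 genes than X, at 59.2, 59.0 and 57.8. Over all 30000 peaks X held 227.6, 221.8 and 222.2 per 100 genes, and the pooled arms 219.6, 216.9 and 216.2. X was thus higher in 3 of 3 replicates there, although 3L alone again held more, at 247, 240.7 and 238.7. Along X, whole windows of 1 Mb held between 4 and 89 IDR peaks with a median of 59. The emptiest was the last whole window before the centromeric end, which held 4 peaks and 46 genes. The longest stretch without an IDR summit, 823943 bp between positions 21631723 and 22455666, had a counterpart in each replicate, whose longest gaps on X were 823947, 823929 and 823950 bp.

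Outside promoters, X peaks lay in introns more often and between genes less often than those of the arms. Introns held 341 of the 477 X summits outside promoters, or 71.5%, against 54.5% on 2L, 47.6% on 3L and 61.4% on 3R. The X share was 71.7%, 68.4% and 68.1% in replicates 1, 2 and 3, and that of the arms 53.8%, 55.0% and 55.9%. Every X value was above every value of the arms (difference 14.5 ± 3.04 percentage points, or 8.16 against 3R alone). Introns made up 46.3% of X positions outside promoters, against 44.4% on the pooled arms. By arm this was 41.71% on 2L, 41.64% on 3L and 48.85% on 3R, so X itself was richer in introns than 2L and 3L but poorer than 3R. Intergenic DNA held 91 X summits, or 19.1%, against 38.4%, 46.0% and 32.5% on 2L, 3L and 3R. It held 19.3%, 20% and 20.9% in the replicates on X and 40.1%, 37.2% and 35.9% on the arms (difference -17.7 ± 2.94, or -11.2 against 3R alone). Intergenic DNA made up 25.9% of X positions outside promoters and 32.3% of those of the pooled arms, with 33.45% on 2L, 36.79% on 3L and 27.55% on 3R. The share in 3′ untranslated regions was 3.98% on X and 1.80% on the arms, from 19 and 33 summits, below the share of positions in both.

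**Figure D3:**
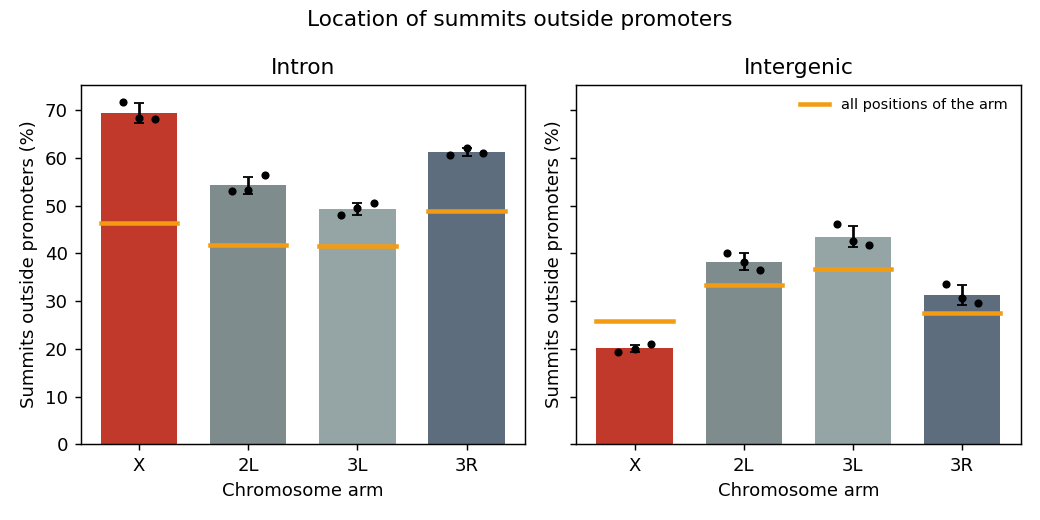
Share of summits outside promoters that lay in introns (left) and in intergenic DNA (right) on each arm, with bars and error bars for the mean and SD of 3 replicates, points for the replicates and orange lines for the share of all positions outside promoters. X has the highest intron share, 69.4% over the replicates, and the lowest intergenic share, 20.1%, and its intergenic bar is the one that lies under the line.

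The intronic X peaks were spread over 166 host genes. The 10 hosts with the most summits held 85 of the 341, or 24.9%, against 21.4%, 19.1% and 19.6% on 2L, 3L and 3R. Without the 10 hosts with the most summits the intron share was 65.3% on X and 48.5%, 42.3% and 56.1% on the 3 arms, and in the replicates it was 65.4%, 61.6% and 61.4% on X. The gene with the most summits between its ends was kirre (FBgn0028369, chrX:2740384-3134532), an adhesion molecule gene of myoblast fusion that spans 394149 bp, with 17 summits, of which 15 lay outside promoters and whose median signal was 208.6. CG1677 (FBgn0029941, chrX:7281089-7405797) had 16 summits between its ends with a median signal of 417.2, and these include summits at genes that lie within it, such as Dok. The forkhead gene CHES-1-like and the kinase gene Tlk each had 10. Intronic X peaks were of middling strength, with a median percentile of 40.5, against 41.1 for intronic peaks of the arms.

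The share of the 7477 strongest peaks that lay at promoters differed between X and the pooled arms by less than the spread between replicates. The promoter share was 61.3% in the IDR list on X, against 62.6%, 57.7% and 64.4% on 2L, 3L and 3R. In replicates 1, 2 and 3 it was 57.6%, 66.0% and 64.7% on X and 58.4%, 65.9% and 63.9% on the arms. The difference of 0.0573 ± 0.861 percentage points was smaller than its spread, with X higher in 2 of 3 replicates, and it turned negative under 6 of 11 alternatives. Larger than their spread were the differences over all 30000 peaks (3.28 ± 0.147), with the 3738 strongest (-3.18 ± 1.48), against 3L alone (3.54 ± 0.499) and against 3R alone (-2.69 ± 1.73). X promoter summits lay upstream of the TSS in 84.0% of cases, at a median of 81 bp upstream, against 84.9% and 75 bp. Median peak width was 410 bp on X and on every arm. In replicates 1, 2 and 3 it was likewise the same on X and every arm, at 376, 460 and 424 bp. The median is thus common to a whole list, and its likeness says little about X.

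The share of genes bound on X depended on how many peaks were counted, and with the 7477 strongest it differed from that on the arms by less than the spread between replicates. Bound genes are those with a TSS no more than 500 bp from an IDR summit. They made up 920 of the 2196 protein-coding genes of X, or 41.9%, and 3675 of 8817, or 41.7%, on the arms. The replicates gave 40.8%, 41.3% and 40.7% on X and 40.8%, 41.5% and 40.5% on the arms, a difference of -0.0209 ± 0.226 percentage points (exact sign-flip permutation p = 0.75). With the 3738 strongest peaks of each replicate, 21.8% of the genes were bound on X and 28.1% on the arms (difference -6.24 ± 0.285), and with all 30000 peaks 60.9% and 57.2% (3.73 ± 0.785). Against single arms the difference was 2.49 ± 0.0657 from 2L and -1.86 ± 0.279 from 3R. Among genes whose TSS lies within 1000 bp of a divergent neighbour's, 71.4% were bound on X and 72.5% on the arms. Of the other genes, 25.5% were bound on X and 23.9% on the arms. X was higher than the pooled arms in 3 of 3 replicates, by 0.786 ± 0.647 points. Against 3L alone, X was higher in replicate 1 but lower in replicates 2 and 3, so this gap was not particular to X. Protein-coding genes of X had a mean of 1.507 TSSs each, against 1.374 on the arms, and the part of this in the shares bound was not tested.

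In the IDR list, housekeeping, ribosomal, chromatin, meiosis, signalling and neuronal genes on X were bound at shares above the 41.9% of all X genes. Patterning, yolk, cuticle and chemoreceptor genes were bound at shares below it. All counts are of members on X. Of 20 genes of cell architecture and housekeeping, 19 were bound, with a median signal of 212.7, and the replicates gave lower counts of 14, 17 and 18. The glycolytic gene Gapdh2 (FBgn0001092) had the strongest of these peaks at 1079.9, followed by the hexokinase gene Hex-A at 715.5 and the myosin light chain gene sqh at 545.9, while the pentose phosphate gene Pgd was unbound. Of 14 cytoplasmic ribosomal protein genes, 12 were bound, with RpL22 (611.1), RpS19a (560.7) and RpS10b (502.3) strongest and RpL35 and RpS6 unbound. All 14 had a summit in replicate 3's strongest peaks, against 12 in each of the other replicates. The mitochondrial ribosomal protein genes were bound in 6 of 11 cases, with the strongest at mRpL16, mRpL33 and mRpS14, and mRpL3 and mRpL30 were unbound.

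Of 24 chromatin and transcription genes, 20 were bound, with Bap111, ph-p and the histone methyltransferase gene trr (500.1) strongest and HDAC4 and HDAC6 unbound. That peak of trr lay between trr and mRpL16 and is counted for both. Of 29 signalling genes, 20 were bound, with the strongest peaks at arm, at Raf (FBgn0003079, signal 1716.4, 134 bp upstream of a TSS) and at the GSK3 kinase gene sgg (615.2), and the JNK kinase gene hep and the phosphatase gene Pp1-13C were unbound. Of 12 genes of meiosis and DNA repair, 10 were bound in the IDR list and 10 in each replicate. The share in the IDR list, 83.3%, was the same as that of the chromatin and transcription genes. The strongest were vilya (707.9), a gene of meiotic break formation, the chromosome segregation kinesin gene nod (630.3) and the checkpoint kinase gene mei-41 (549.8). The nuclease gene mei-9 and narya, related to vilya, were unbound. The peak 58 bp upstream of vilya (FBgn0283545, chrX:2726678-2727568) ranked 704, 810 and 488 in the replicates, and that of mei-41 had no replicate 2 summit within 100 bp.

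Of 24 genes of neuronal excitability and behaviour, 13 were bound, and the replicates gave 12, 9 and 12. The 9 of replicate 2 were a share below the 41.3% of all X protein-coding genes bound in that replicate. The strongest were at the adhesion gene Nrg (988.8), the phosphodiesterase gene dnc (550.5) and the dynamin gene shi (338.5), and the channel genes Sh and cac were unbound. Of 25 classical visible marker genes, 10 were bound, a share of 40% near that of all X genes, led by cm, rb and rux, with B-H1 and IP3K2 unbound. Of 23 embryonic patterning and cell fate transcription factors, only 3 were bound, namely elav (1240.2), ewg (381.8) and oc (153.4), and the Bar homeobox genes B-H1 and B-H2 were unbound. The replicates gave 3, 5 and 4. Of those 3 genes elav is a marker of differentiated neurons, and the peak of oc ranked only 20941 in replicate 3. Neither the IDR list nor any replicate had a bound member among 31 chemoreceptor and odorant-binding protein genes, 10 yolk, chorion and vitelline genes and 7 cuticle protein genes. Gr10a, Gr10b, Cp36, Cp38, Cpr11A and Cpr11B stand for them by alphabet.

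**Figure D4:**
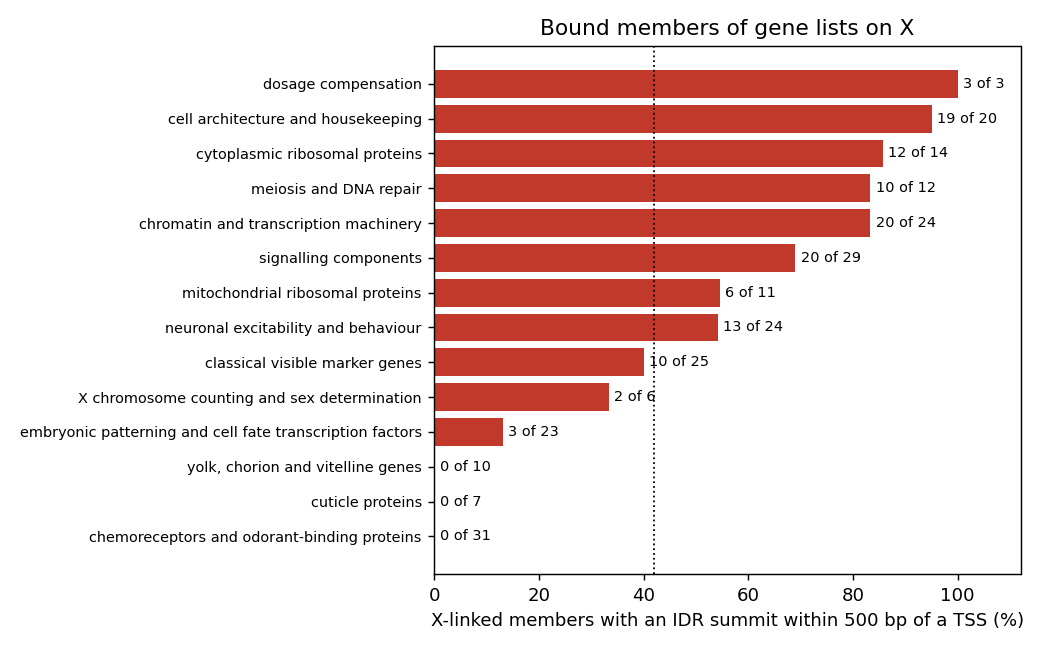
Percentage of X-linked members of 14 gene lists that were bound at a TSS, with the counts beside the bars and a dotted line at the 41.9% of all X protein-coding genes. Housekeeping, ribosomal, chromatin, meiosis, signalling, neuronal and dosage compensation lists lie to the right of the line. Patterning factors, sex determination, visible marker, yolk, cuticle and chemoreceptor genes lie to the left.

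Of the genes that act on the X chromosome as a whole, the 3 dosage compensation genes on X all had an IDR peak, although roX1 and roX2 are non-coding and so outside the 41.9% of protein-coding genes. The non-coding RNA gene roX1 (FBgn0019661, chrX:3857230-3862697) had a peak 17 bp downstream of a TSS with a signal of 612.5, and roX2 (FBgn0019660, chrX:11579065-11580432) had one 25 bp upstream with a signal of 240.6. The acetyltransferase gene mof (FBgn0014340) had a summit at its TSS with a signal of 178.3. The roX1 peak ranked 4136 in replicate 1 but 396 and 682 in replicates 2 and 3, and the mof peak ranked 8512 in replicate 1 and so lay outside its 7477 strongest. Of the autosomal list members on 2L and 3L, msl-1 had a signal of 587, Clamp 302 and msl-2 188.8, and msl-3 had 420.9 but no replicate 1 summit within 100 bp. Of 6 genes that count the X chromosomes or set the sex, 2 were bound, or 33.3% beside the 41.9% of all X protein-coding genes, namely Sxl (FBgn0264270, chrX:7074550-7098053), the female-determining RNA-binding protein gene, with a signal of 483.7 at 123 bp upstream, and the splicing factor gene snf, with 401.9. The X-counting genes run and sc, which are also in the patterning list, were unbound.

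The sequence CTGCCAAC was found in 14 of the 79 strongest-decile X windows of 201 bp, or 17.7%, against 2.53% of windows shifted by 1000 bp and 18.8% of strongest-decile windows on the arms. In the replicates' strongest deciles it was found in 15.6%, 14.7% and 16.2% of X windows and in 18.4%, 19.1% and 18.6% of those of the arms. Next to the strongest decile the share dropped to 1 of 93 X windows. Over all X peaks 28 windows held it, 2.27% against 2.88% on the arms (difference in the replicates -0.728 ± 0.128 points, or -0.393 against 3L alone and -0.196 over all 30000 peaks), and the median percentile of these X peaks was 88.5.

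The sequence was as frequent on X as elsewhere, with 1084 sites or 46.0 per Mb against 45.9 on the arms, and it was in 1.62% of the windows around all X TSSs against 1.68%. Of the 129 sites at X promoters, 15.5% had an IDR summit within 100 bp, against 24.0% of the 441 on the arms. The replicates gave 16.3%, 13.2% and 14.7% on X and 24.3%, 24.0% and 25.2% on the arms, a difference of -9.76 ± 1.55 points. The sequence was chosen for its excess in strong peaks of the arms, which favours the arms in this comparison and in all others of the sequence between X and the arms, so the gap is a description and shows no difference of X. Away from promoters, 1.15% of the X sites and 1.06% of those of the arms had a summit. The search over all peaks of the arms gave ATTTAAAA instead, which was found in 11.4% of X windows and 4.51% of their shifted windows and whose matches can overlap those of the A tract below.

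X promoters held more DNA replication-related elements. TATCGATA, which reads the same on both strands, was found in 18.2% of X promoter windows and 12.5% of those of the arms. The replicates gave 18.2%, 16.3% and 16.6% on X and 12.3%, 11.7% and 11.4% on the arms, so X was higher in 3 of 3 (difference 5.25 ± 0.673 points). Over all peaks, promoters or not, the difference was 3.57 ± 0.120 points, and it was 1.54 over all 30000 peaks and 1.95 with windows of 50 bp each side. All X TSSs held more of it too, 9.44% of windows of the same length against 5.79% on the arms. X peaks with the element had a median percentile of 47.1, 52.7 and 56.0 in replicates 1, 2 and 3, against 42.5, 43.3 and 43.0 for X peaks without it. On the arms the medians were 57.1, 64.0 and 64.0 with it and 51.2, 50.4 and 51.3 without it. Most IDR peaks with the element lay at promoters, 137 of 145 on X and 369 of 386 on the arms. Those without it included the weaker peaks outside promoters, so this comparison mixes location with the element. All promoter peaks had medians of 46.8, 48.1 and 48.9 on X and 59.2, 59.7 and 59.9 on the arms. In replicate 1 of the arms, peaks with the element thus stood below promoter peaks as a whole.

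**Figure D5:**
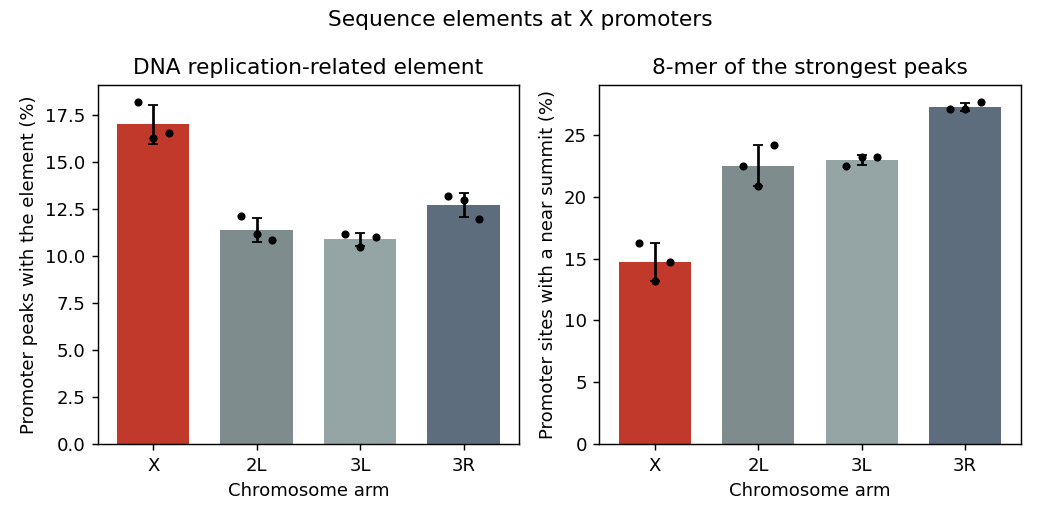
Share of promoter peaks with the DNA replication-related element within 100 bp of the summit (left) and share of promoter sites of the strong-peak 8-letter sequence with a summit within 100 bp (right), by arm, with bars and error bars for the mean and SD of 3 replicates and points for the replicates. X is highest on the left, at 17.0%, and stands at 14.7% on the right, where the sequence was chosen in peaks of the arms.

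The GA and CA repeats and the A tract were more frequent in X windows, and in X as a whole. GAGAGAGA was found in 1.43%, 3.69% and 3.17% of X windows in replicates 1, 2 and 3 and in 1.00%, 2.25% and 2.20% of those of the arms. CACACACA was found in 3.10%, 4.95% and 4.63% on X and 1.90%, 3.34% and 3.51% on the arms. Both were higher on X in 3 of 3 replicates, by 0.950 ± 0.506 and 1.31 ± 0.266 points, which fell to 0.132 and 0.271 with windows of 50 bp each side. Both were also more frequent over the whole chromosome, where GAGAGAGA was in 1.53% of X tiles of the same length against 1.05% and CACACACA in 5.76% against 3.79%. The A tract AAAAAAAA was in 14.7% of X windows and 15.8% of X tiles, against 11.7% and 9.61% on the arms. In the strongest decile the order was the other way, with 5 of 79 X windows, or 6.33%, against 13.8% on the arms, and 5.56%, 5.33% and 5.88% in the replicates against 13.6%, 13.0% and 13.6%. The core of Ohler motif 1, GGTCACAC, was in 11.1% of X promoter windows and 10.6% of those of the arms, in 5.83% and 5.58% of all TSS windows, and in 0 of the 79 strongest-decile X windows against 20 of 521 on the arms. In the replicates' strongest deciles it was in 0%, 2.67% and 2.94% of X windows and 3.65%, 5.61% and 6.31% of those of the arms. The E-box CAGCTG was in 12.3% of X promoter windows against 14.6%, and in 11.8% of all X TSS windows against 13.7%. TATATATA was in 4.31% of X windows against 4.28%, and in 4.24% of tiles against 2.68%. The Zelda motif CAGGTAG was in 0.975% of X windows against 0.731%, and in 0.998% of tiles against 1.09%. The base composition differed slightly as well, with a mean GC content of 36.3% in X windows and 35.1% in those of the arms, and its part in the motif shares was not tested.

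Among the 7477 strongest peaks, recovery of X peaks in the other replicates differed from that of the arms by less than its spread. Of the 1231 X peaks, 720 or 58.5% had a summit within 100 bp among the 7477 strongest of every replicate, against 60.7% on the arms, and 1084 or 88.1% had one in the whole lists, against 85.9%. The strongest X peaks of each replicate had a summit in both others in 56.6%, 58.4% and 60.3% of cases, against 59.3%, 58.5% and 58.6% on the arms. The difference of -0.374 ± 2.22 points was smaller than its spread and changed sign between replicates. It was larger than its spread with the 3738 strongest peaks, at -6.93 ± 2.11, and with all 30000, at 2.69 ± 0.182.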

How the data were processed

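ChIP-seq peak lists of 3 biological replicates were analysed. The authors deposited narrowPeak lists on dm6: per the file lists, 30000 peaks called for each replicate and for the pooled alignments against a control, and the IDR list derived from them. For the aligner, peak caller and IDR settings, the sources used here give nothing, the control was not analysed here, and depth is unknown, so no interval for counting error is given. The deposited signal value per peak was compared only within its list. The deposited -log10 q-value was not used for ranking. Summits come from the deposited offsets, and coordinates count from 1.

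Each replicate list was cut to its 7477 strongest peaks. The value on X minus that on 2L, 3L and 3R pooled was taken within each list and tested by an exact two-sided sign-flip permutation test over the 3 lists, and 74 such differences were computed. Nothing says whether the replicates came from separate embryo collections, and p-values measure only the spread between them. Genes came from the Ensembl BDGP6.54 annotation and sequence from RefSeq on dm6. Peaks and genes ended within the RefSeq chromosome lengths. Promoters came first among the location classes, then the untranslated 5′ end, coding sequence, the untranslated 3′ end, introns, non-coding genes and lastly intergenic DNA, and all positions were sampled every 100 bp. Motifs were read from both strands of the 201 bp around each summit. Gene list entries were matched by symbol (177), older symbol (9) or a pattern of symbols (63), and 6 were not matched. The chromatin list also holds the kinase gene CkIIbeta, the ubiquitin ligase gene Ubr3 and the trafficking gene Vsp37A, and neighbours that share a peak are each counted. Genes named are those nearest the 20 strongest X peaks and the 5 strongest outside promoters, the 3 with the most summits, and per list up to 3 bound and 2 unbound members. The peaks, lists and motifs were chosen with earlier results of these data known. Scripts were tested on simulated data. Python 3.11.15, numpy 2.4.6, pandas 2.3.3, scipy 1.17.1 and matplotlib 3.10.9 were used.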

Additional observations from a re-analysis of the deposited data

How the results depend on the processing

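The alternatives were the 3738 strongest or all 30000 peaks, each replicate left out, each arm alone, no pericentromeric decile of each arm, and other windows. The 6 comparisons on the strongest decile, promoter strength, introns, intergenic DNA, the replication-related element and the 8-letter sequence were added after seeing the data. Of 140 alternative values, 122 kept the direction, 17 reversed and 1 moved from 0. The direction held under every alternative run for peaks per Mb (-20.3 to -5.06), GA repeats (0.132 to 2.10), CA repeats (0.271 to 3.90), the strongest decile (-5.38 to -2.46), promoter strength (-13.9 to -3.92), introns (8.16 to 20.1), intergenic DNA (-23.5 to -11.2), the replication-related element (1.54 to 4.33) and the 8-letter sequence (-1.08 to -0.196), whose choice favours the arms. With all 30000 peaks the median percentile differed by 0.298, the promoter share by 3.28, the recovered share by 2.69 and the share of bound genes by 3.73. With 3738 peaks the promoter share differed by -3.18, the recovered share by -6.93 and the share of bound genes by -6.24. The promoter share differed by -0.417 against 2L, 3.54 against 3L, -2.69 against 3R, -0.0666 without the pericentromeric decile and -0.939 with a TSS window of 250 bp. The recovered share differed by 0.439 against 2L, 1.11 against 3L and -2.33 against 3R. The share of bound genes differed by 2.49 against 2L, -1.86 against 3R, 0.0719 without the pericentromeric decile and 0.189 with a window of 1000 bp. Median peak width differed by -6.5 bp with 3738 peaks. Leaving out 1 replicate in turn gave -0.360 to 0.50 for the promoter share, -1.24 to 0.332 for the recovered share, which then needs only the 1 other list, and -0.136 to 0.0900 for the share of bound genes. The cause was not tested. No paired analysis was possible because there is only 1 group of samples, so no replicate number is shared between groups, while X and the arms were paired within each list throughout. Read depth is unknown, and 3 replicates limit the smallest p to 0.25.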
